A study of Mus musculus with 7 samples.

Results

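Matrix metalloproteinases, the related ADAM and ADAMTS proteases and the tissue inhibitors of metalloproteinases were followed through caerulein-induced pancreatitis in the mouse, by the accessible chromatin around their genes. The members were the protein-coding genes whose symbol is Mmp, Adam, Adamts or Timp followed directly by a number. They were 80 of 21631 protein-coding genes, of which 23 were Mmp, 34 Adam, 19 Adamts and 4 Timp genes. An accessible region belonged to a member when its summit lay nearest to that gene, inside the gene or within 50 kb of it. By this rule the genes held 543 of 140286 regions before treatment, and 791 of 164684, 666 of 145337 and 542 of 130149 regions at days 1, 7 and 28.

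Open chromatin was profiled with Tn5 transposase, which cuts and tags accessible DNA (ATAC-seq), in pancreatic epithelial cells purified from wild-type C57BL/6J mice. Mice were either untreated or had received caerulein, a cholecystokinin analogue that overstimulates acinar cells and provokes a transient pancreatitis, and were sampled 1, 7 or 28 days later. Their age and sex and the number of animals behind each library are not stated. Each of the 4 groups had 1 library and 1 peak list, so no value has a replicate check and every difference compares libraries; 3 libraries of DCLK1-positive cells from another mouse line were not analysed here.

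Matrix metalloproteinases are zinc-dependent enzymes, secreted or anchored in the membrane as inactive precursors, which cut collagens, elastin, laminins and many signalling proteins once activated. ADAM proteases sit in the cell membrane and shed the outer parts of other membrane proteins, among them growth factor precursors and Notch receptors, and ADAMTS proteases are secreted and process procollagens and proteoglycans. Timp proteins bind the active site of these enzymes and block it. In the inflamed pancreas, matrix remodelling by activated stellate cells is a main source and site of action of these enzymes, and Adam17 and Mmp7 are known in mice for parts in the conversion of acinar cells to duct-like cells.

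Promoters were read from RefSeq (GRCm38.p6), as 300 bases from 250 before to 50 from the start of the gene, for the 50 members that had an entry; 30 had none. The first set shows Mmp promoters of the chromosome 9 cluster, since these held a peak in some lists and not in others or, for the collagenase gene Mmp13, in none. Capitals mark the AP-1 motif TGANTCA and the TATA motif TATAAA, searched on both strands; a match on the reverse strand reads TTTATA. Mmp7 has a further start in the table, which is not shown.
Mmp13, chr9:7272264-7272563, + strand: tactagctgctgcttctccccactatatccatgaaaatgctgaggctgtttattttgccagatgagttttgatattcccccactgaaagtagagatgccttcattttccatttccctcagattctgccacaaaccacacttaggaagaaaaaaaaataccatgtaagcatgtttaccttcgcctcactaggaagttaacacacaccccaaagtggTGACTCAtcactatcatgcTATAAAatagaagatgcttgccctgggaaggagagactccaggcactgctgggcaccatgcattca
Mmp3, chr9:7445572-7445871, + strand: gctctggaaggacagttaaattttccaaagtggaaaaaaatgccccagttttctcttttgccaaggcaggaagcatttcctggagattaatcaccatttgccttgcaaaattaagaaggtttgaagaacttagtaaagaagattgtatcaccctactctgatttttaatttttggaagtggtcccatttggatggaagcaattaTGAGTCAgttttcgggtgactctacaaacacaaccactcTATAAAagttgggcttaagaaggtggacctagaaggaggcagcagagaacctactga
Mmp10, chr9:7502092-7502391, + strand: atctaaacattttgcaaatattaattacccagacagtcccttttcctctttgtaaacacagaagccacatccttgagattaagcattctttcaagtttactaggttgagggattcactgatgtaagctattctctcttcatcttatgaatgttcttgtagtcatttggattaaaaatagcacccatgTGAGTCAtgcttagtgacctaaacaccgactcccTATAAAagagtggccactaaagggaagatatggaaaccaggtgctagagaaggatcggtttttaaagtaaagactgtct
Mmp8, chr9:7558179-7558478, + strand: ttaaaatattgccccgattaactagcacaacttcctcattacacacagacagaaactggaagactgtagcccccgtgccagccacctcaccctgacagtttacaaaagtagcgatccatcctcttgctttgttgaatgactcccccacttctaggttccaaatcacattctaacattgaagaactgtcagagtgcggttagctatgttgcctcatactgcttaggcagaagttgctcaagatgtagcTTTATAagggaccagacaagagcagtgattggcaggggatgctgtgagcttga
Mmp27, chr9:7571146-7571445, + strand: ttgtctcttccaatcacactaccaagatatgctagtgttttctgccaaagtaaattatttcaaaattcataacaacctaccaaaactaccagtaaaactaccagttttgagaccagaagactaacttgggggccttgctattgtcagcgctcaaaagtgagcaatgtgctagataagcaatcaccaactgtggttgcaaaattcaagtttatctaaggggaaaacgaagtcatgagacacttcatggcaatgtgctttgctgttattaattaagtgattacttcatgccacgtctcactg
Mmp7, chr9:7691840-7692139, + strand: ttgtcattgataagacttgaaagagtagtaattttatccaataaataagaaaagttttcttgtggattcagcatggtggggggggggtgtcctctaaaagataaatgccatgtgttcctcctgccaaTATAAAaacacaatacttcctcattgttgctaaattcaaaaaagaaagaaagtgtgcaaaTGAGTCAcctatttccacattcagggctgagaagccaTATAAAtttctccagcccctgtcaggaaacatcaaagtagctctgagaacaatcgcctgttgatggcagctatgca

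The second set shows a promoter rich in CG that held a peak at days 1 and 7 only, at Adam23, and the promoter of the inhibitor gene Timp1, which held a peak in all 4 lists. Capitals mark CG dinucleotides, of which Adam23 had 31 and Timp1 had 8.
Adam23, chr1:63445641-63445940, + strand: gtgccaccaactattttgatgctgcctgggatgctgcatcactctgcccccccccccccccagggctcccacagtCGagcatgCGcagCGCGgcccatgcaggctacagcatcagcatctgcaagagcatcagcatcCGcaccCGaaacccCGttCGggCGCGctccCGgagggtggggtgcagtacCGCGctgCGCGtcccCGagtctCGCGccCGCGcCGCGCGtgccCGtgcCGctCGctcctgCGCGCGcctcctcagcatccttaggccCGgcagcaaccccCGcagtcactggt
Timp1, chrX:20869916-20870215, + strand: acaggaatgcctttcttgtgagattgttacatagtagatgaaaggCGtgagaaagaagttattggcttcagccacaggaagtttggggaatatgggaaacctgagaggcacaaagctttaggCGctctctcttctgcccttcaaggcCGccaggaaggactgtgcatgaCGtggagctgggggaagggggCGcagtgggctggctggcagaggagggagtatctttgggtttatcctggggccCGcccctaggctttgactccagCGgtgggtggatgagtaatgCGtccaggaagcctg

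The lists differ in depth and enrichment, and this touches every count below. The background pileup was 5.07 before treatment and 5.35, 2.72 and 2.52 at days 1, 7 and 28, and the lowest fold enrichment that entered a list lay between 2.36 and 2.95. Where all 4 lists share a region, the median enrichment above background (fold minus 1) was 7.4 before treatment and 16.6, 15.1 and 11.5 at days 1, 7 and 28. The main shares and many of the gene counts are therefore also given on a common enrichment floor. It keeps only regions above the same enrichment relative to those shared regions. That was a fold of 2.47 before treatment and of 4.31, 4.0 and 3.28 at days 1, 7 and 28. Other gene counts are given as deposited only, and the floor moves some of these by over 1.5 times as well. Fold enrichment is the authors' ratio of pileup to background at the summit; it ranks regions within a list, and differences of fold between lists are not read as changes.

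Marker genes of several cell types held regions in these lists. The 17 acinar marker genes held 240 regions before treatment and 63, 148 and 257 at days 1, 7 and 28, and the 9 ductal markers held 105, 81, 95 and 97. The 14 fibroblast and stellate markers held 138, 267, 215 and 163 regions in the same order, and all 14 had more gained than lost regions at day 1; Lum was the marker without a region in the untreated list. The 14 leukocyte markers held 27, 39, 30 and 21 regions, with Adgre1 and Cd52 at 0 in every list, and the 14 endothelial markers held 188, 159, 177 and 126. The 5 tuft cell markers held 62, 111, 83 and 68, with 65.8% of their day 1 regions gained, beside 52.4% of all regions. Dclk1 alone held 19, 63, 42 and 26 and supplied 50 of the 73 regions that these markers gained at day 1. Among the others, Trpm5 had 5 gained and 2 lost regions at day 1 and Avil 6 and 1, but Pou2f3 had 7 and 7 and Sh2d6 5 and 6. Of the 73 gained regions 46 stood above the common floor, 35 of them at Dclk1. Trpm5 had 1 such region, Avil 3, Pou2f3 4 and Sh2d6 3. The losses and the gained share of these markers were not computed on that floor. In these bulk lists a larger share of cells of a type cannot be told apart from more open chromatin per cell. The part of the fibroblast and tuft cell signals in the results that follow was not tested.

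Regions of a later list that shared not even 1 bp with an untreated peak were called gained, and untreated regions that shared none with a later peak were called lost. At day 1, 469 of 791 regions at protease and inhibitor genes were gained, or 59.3% (95% exact binomial interval 55.8 to 62.7), beside 52.4% of all regions. Losses were fewer: 144 of 543 untreated regions, or 26.5% (22.9 to 30.4), beside 37.4% of all untreated regions. On the common floor the gained share was 48.1% beside 42.1%, and the lost share 31.1% beside 45.0%. The intervals cover counting error only, and regions of the same gene are not independent.

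At day 7, 296 of 666 regions were gained, or 44.4% (40.6 to 48.3), beside 36.0% of all regions. The untreated regions lost by then were 137 of 543, or 25.2% (21.6 to 29.1), beside 32.0%. At day 28 the gained share was 24.7% (134 of 542; 21.1 to 28.6), beside 23.7% of all regions, and the lost share 24.1% (131 of 543; 20.6 to 28.0), beside 27.1%. On the common floor the day 7 shares were 41.7% gained beside 33.2% and 27.1% lost beside 33.9%, and the day 28 shares 24.3% gained beside 23.3% and 24.3% lost beside 27.3%. The day 28 intervals held the share of all regions for both gains and losses. The same shares in 44 collagen genes were 63.3%, 45.3% and 25.9% gained and 19.0%, 20.0% and 31.0% lost at days 1, 7 and 28. In 42 integrin and laminin genes they were 57.5%, 43.0% and 26.9% gained and 29.2%, 26.5% and 25.9% lost, so a gained share above that of all regions at days 1 and 7 was found in all 3 groups of matrix genes. The differences between these groups were not tested.

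**Figure D1:**
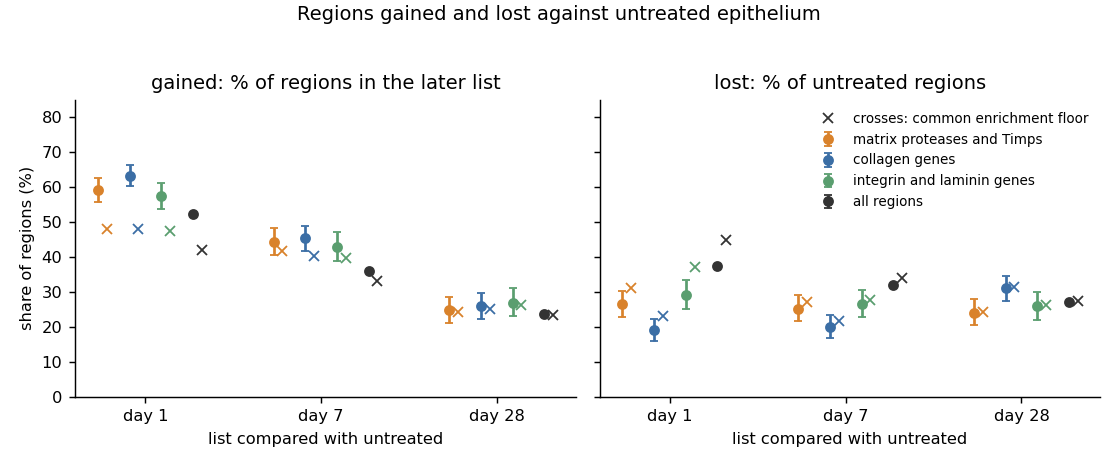
Share of regions gained (left) and of untreated regions lost (right), in percent, at days 1, 7 and 28 for protease and inhibitor genes, collagen genes, integrin and laminin genes and all regions; bars on the points are exact 95% binomial intervals for counting error, with 1 library per day, and crosses are the same shares on the common enrichment floor. At day 1 the protease and inhibitor genes stand at 59.3% gained and 26.5% lost, beside 52.4% and 37.4% of all regions, and at day 28 at 24.7% and 24.1%.

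Counted by gene, 43 of the 80 members had more gained than lost regions at day 1, 17 had more lost and 20 had as many of each. These 43 and 17 genes were 53.8% and 21.2% of the members, beside 39.4% and 25.8% of all protein-coding genes. On the common floor the numbers were 34, 22 and 24. All protein-coding genes were not counted on that floor, so the floor numbers stand without a comparison. At day 7, 38 genes, or 47.5%, had more gained regions, beside 30.2% of all genes, and 20, or 25.0%, more lost, beside 29.3%. At day 28 the numbers were 24 and 24, or 30.0% each, beside 21.9% with more gained and 31.7% with more lost. A member gained 5.86 regions at day 1 on average, beside 3.27 for all protein-coding genes, with medians of 2 and 1, and lost 1.8 beside 2.16. Members are somewhat longer genes, with a median span of 22135 bp beside 17329 bp. Several members named below for many gained or lost regions are far longer. Adam12 spans 341899 bp, Adamts17 313473 bp, Adamts12 284460 bp and Adamts2 205489 bp. The part of gene length in these counts was not tested. A region was found in every list at 50 members and in no list at 15. The 15 were Adam1a, Adam3, Adam4, Adam6a, Adam20, Adam21, Adam25, Adam26a, Adam26b, Adam29, Adam34, Adam39, Mmp1a, Mmp1b and Mmp21. Most of these Adam genes are known for expression in the testis, and Mmp1a and Mmp1b are the mouse counterparts of human interstitial collagenase.

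**Figure D2:**
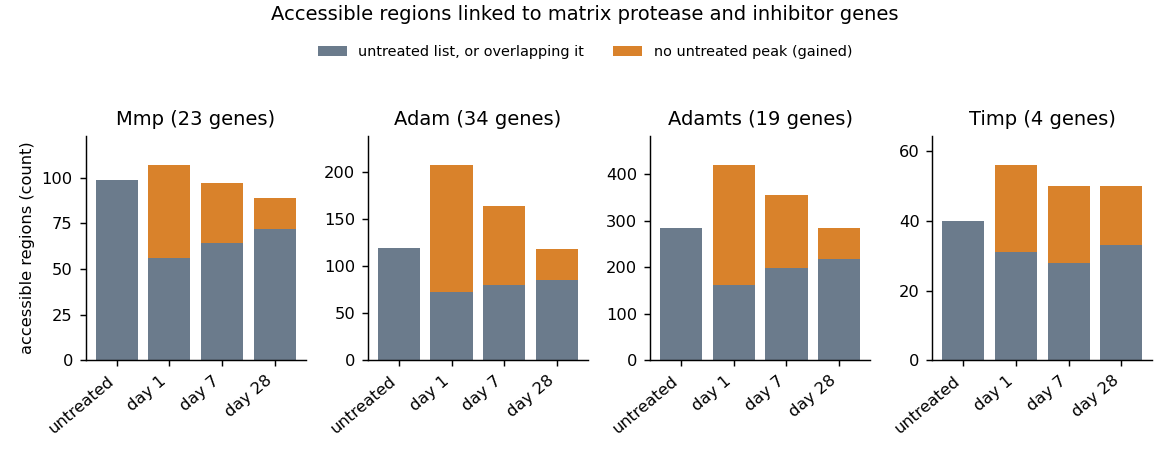
Number of accessible regions linked to the Mmp, Adam, Adamts and Timp genes in the untreated, day 1, day 7 and day 28 lists, 1 library each; the orange part of each bar counts regions that overlap no untreated peak, on a scale of its own for each family. Adamts genes held 420 regions at day 1, of which 258 were gained, and Mmp genes 107, of which 51 were gained.

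In the Adam family 64.9% of day 1 regions were gained, beside 52.4% of all regions, and 21.7% of untreated regions lost, beside 37.4%. These shares were 51.8% beside 42.1% and 25.8% beside 45.0% on the common floor. Its 34 genes held 120 regions before treatment and 208, 164 and 119 at days 1, 7 and 28; 135 were gained at day 1 and 26 untreated regions lost, and on the common floor 73 were gained and 31 lost. Among the 9 genes of catalytically active sheddases 84 of 142 day 1 regions were gained, or 59.2%, and 11 of 87 untreated regions lost, or 12.6%; on the common floor 43 were gained, or 43.9%, and 14 lost, or 16.1%. Adam12, a secreted or membrane-bound protease of mesenchymal and regenerating tissue, held 28 regions before treatment and 66, 50 and 32 at days 1, 7 and 28. It had 46, 31 and 10 gained regions at days 1, 7 and 28, the most of any member at days 1 and 7. On the common floor the numbers were 23, 27 and 10, and at day 1 Adamts12, with 27, then had more. Of the merged regions at Adam12, 6 were absent from the untreated list and present in all 3 later lists. Most of its regions lay within the gene, but the gained region with the highest fold of any member at day 1 lay 5768 bp outside it, at chr7:134230604-134232131, with a fold of 51.8 at day 1 and 12.4 at day 7 and no peak at day 28.

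Adam19, a sheddase of neuregulin and related ligands, held 22, 40, 29 and 24 regions in the untreated, day 1, day 7 and day 28 lists, of which 22, 11 and 3 were gained at the later times and none of the untreated regions was lost at day 1. Adam19 gained 10, 9 and 3 on the common floor, and lost 2 at day 1. The gene of the principal Notch sheddase, Adam10, and that of the tumour necrosis factor and EGFR ligand sheddase, Adam17, stood differently. They held 4 and 6 untreated regions, and their promoters carried 2 of the 5 strongest untreated peaks linked to members, with folds of 123 and 82.7; both promoters held a peak at every later time. A stronger peak, with a fold of 155, lay over an end of the sheddase gene Adam9, but its summit was nearest to a neighbouring gene and it is not counted. Adam10 had no gained and 2 lost regions at day 1, and Adam17 had 3 gained and 4 lost. The strongest region that Adam17 lost lay inside the gene, at chr12:21324134-21324703; its fold was 15.7 in untreated epithelium, no peak was called at day 1, and it was listed at 5.64 at day 7 and 16.8 at day 28.

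The 3 Adam genes whose products lack a working catalytic site, Adam11, Adam22 and Adam23, are known as neuronal adhesion proteins and binding partners of LGI proteins. Adam23 had no region in the untreated list, 11 at day 1, 6 at day 7 and none at day 28. Its promoter, printed above, was covered by a peak at day 1 (fold 14.7) and at day 7 (15.6) and by none in the untreated and day 28 lists. Adam22 held 4, 22, 13 and 6 regions, with 20 gained at day 1, and 9 on the common floor. Adam11 did not share this course, with 15, 12, 11 and 12 regions and 4 gained and 6 lost at day 1. The remaining 22 Adam genes, mostly known from the testis, held 14, 21, 19 and 12 regions in all.

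Among the Adamts genes, 258 of 420 regions were gained at day 1 and 88 of 284 untreated regions lost, 151 and 103 on the common floor. The gained share was 61.4% beside 52.4% of all regions and the lost share 31.0% beside 37.4%, and on the common floor 51.7% beside 42.1% and 36.3% beside 45.0%. Adamts12, known for cutting cartilage oligomeric matrix protein, held 20 regions before treatment and 51, 33 and 14 at days 1, 7 and 28. At days 1, 7 and 28 it had 42, 21 and 1 gained regions, 27, 17 and 1 on the common floor. Adamts16 followed the same order with 17, 46, 31 and 12 regions, of which 32, 18 and 2 were gained, or 21, 17 and 2 on the common floor. Its regions with the highest folds gained at day 1 lay inside the gene at chr13:70736073-70737153 (49.0) and 14268 bp from it at chr13:70713152-70714922 (40.3); both had a fold of 8.06 at day 7 and no peak at day 28. A region 30119 bp from Adamts6, chr13:104526369-104527181, was listed at 45.1 at day 1, at 3.76 at day 7 and not at day 28.

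The procollagen N-propeptidase genes Adamts2, Adamts3 and Adamts14, whose products trim fibrillar procollagens before fibres assemble, held 58, 90, 90 and 65 regions. Each of the 3 had more gained than lost regions at days 1 and 7. This was so on the common floor too, but narrowly at day 1 for Adamts3 and Adamts14. Adamts3 had 12 gained and 5 lost regions at day 1, or 6 and 5 on that floor. Adamts14 had 6 and 2, or 4 and 3 on that floor. Adamts2 alone held 37 regions before treatment and 60, 59 and 45 at days 1, 7 and 28, with 35, 27 and 15 gained; 15 was the highest number gained by any member at day 28. On the common floor Adamts2 gained 22, 23 and 14. Adamts14 lost 4 untreated regions by day 28, the strongest of them inside the gene at chr10:61204015-61204264 with a fold of 5.6, within an interval that was listed at 24.7 at day 1 and 16.1 at day 7.

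The 7 proteoglycanase genes, Adamts1, Adamts4, Adamts5, Adamts8, Adamts9, Adamts15 and Adamts20, cut aggrecan and versican and held 94, 133, 113 and 113 regions. Adamts20 held 8, 27, 17 and 9, with 22 gained at day 1, and 13 on the common floor. Adamts9 was a gene of both gains and losses: it held 38, 37, 34 and 42 regions, gained 18 and lost 21 at day 1, and gained 9 and lost 8 at day 28. On the common floor Adamts9 gained 9 and lost 24 at day 1. Of the 5 strongest regions lost by members at day 1, 2 belonged to Adamts15 and 1 to Adamts9, with folds of 17.5, 15.5 and 14.2, and all 3 were listed again at day 7 and at day 28. The strongest such region lay 36709 bp from Adam7, chr14:68460377-68461148, with a fold of 25.7 in untreated epithelium, none at day 1, 13.2 at day 7 and 32.9 at day 28. Adamts17 had the most lost regions of any member at days 7 and 28, 19 of its 41 untreated regions at each time, beside 21, 11 and 6 gained at days 1, 7 and 28. At day 1 it had 21 gained and 18 lost, but on the common floor 9 gained and 22 lost.

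**Figure D3:**
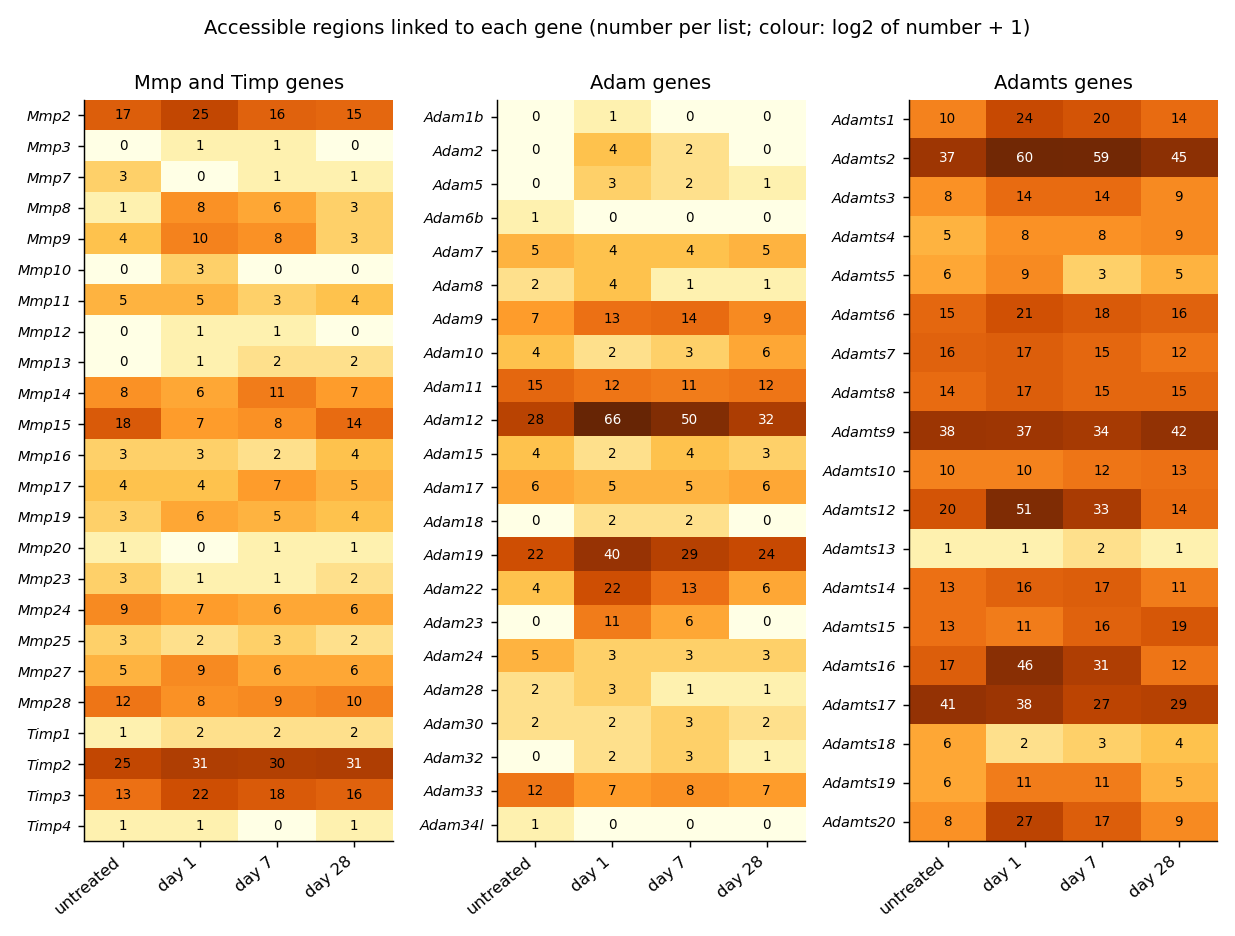
Number of accessible regions linked to each gene in the untreated, day 1, day 7 and day 28 lists. The printed number is the count and the colour its log2 after adding 1. Of the 80 genes, the 15 without a region in any list are not drawn. Adam12 reads 28, 66, 50 and 32, Adamts12 reads 20, 51, 33 and 14, and Mmp15 reads 18, 7, 8 and 14 from left to right.

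The 23 Mmp genes held 99, 107, 97 and 89 regions. They had 51 gained and 25 lost regions at day 1 and 33 gained and 27 lost at day 7, but on the common floor losses exceeded gains, with 25 gained and 29 lost at day 1 and 24 gained and 29 lost at day 7. At day 28 they had 17 gained and 22 lost. As shares, 47.7% of their day 1 regions were gained beside 52.4% of all regions and 25.3% of their untreated regions lost beside 37.4%; on the common floor these were 33.3% beside 42.1% and 29.3% beside 45.0%. Losses exceeded gains over all regions too on that floor, with 46643 gained and 63089 lost at day 1 and 44093 and 47598 at day 7.

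The gelatinases degrade denatured collagen and basement membrane collagen. Mmp2, a product mainly of stromal cells, held 17 regions before treatment and 25, 16 and 15 at days 1, 7 and 28, with 14, 6 and 3 gained and 1, 3 and 5 lost; on the common floor 9, 4 and 3 were gained and 2, 3 and 5 lost. The highest fold at Mmp2 at day 1 was 94.7, at chr8:92834247-92835800 inside the gene; the same interval was listed in all 4 lists, at 5.93 in untreated epithelium, 51.8 at day 7 and 9.93 at day 28. Mmp9, the gelatinase of neutrophils and macrophages, held 4, 10, 8 and 3 regions, of which 5 were gained at day 1 and 3 at day 7; 1 and 0 of these stood above the common floor.

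The 6 membrane-type Mmp genes held 45 regions before treatment and 29, 37 and 38 at days 1, 7 and 28, with 7 gained and 16 lost at day 1, and 2 gained and 19 lost on the common floor. Of their untreated regions 35.6% were lost at day 1, beside 37.4% of all regions. Of their day 1 regions 24.1% were gained, beside 52.4%, and 10.0% beside 42.1% on the common floor. Without Mmp15 the other 5 genes held 22, 29 and 24 regions at days 1, 7 and 28 beside 27 before treatment. These 5 had 7 gained and 4 lost at day 1 (2 and 4 on the common floor) and 9 gained and 5 lost at day 7. Their day 1 gained share was 31.8%, or 11.8% on the common floor, so it was below that of all regions without Mmp15 too. Most of the losses were at Mmp15, the gene of membrane-type metalloproteinase MT2-MMP, which is known from epithelia. Mmp15 held 18, 7, 8 and 14 regions, and 12 of its 18 untreated regions were lost at day 1, 11 at day 7 and 6 at day 28. It gained none at days 1 and 7 and 3 at day 28. Its strongest region, 3756 bp from the gene, was among the 5 strongest untreated regions linked to members and was present in all 4 lists, with a fold of 67.6 before treatment and of 8.35, 25.3 and 72.4 at days 1, 7 and 28. Mmp14, the gene of MT1-MMP, the activator of pro-Mmp2, held 8, 6, 11 and 7 regions and lost none at any time. The acinar markers were likewise lowest at day 1 and higher again at day 28, and the part of the acinar signal in the Mmp15 counts was not tested.

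Of the Mmp genes, 10 stand side by side on chromosome 9, at chr9:7272514-7699585, and include the collagenase genes Mmp13, Mmp8, Mmp1a and Mmp1b, the stromelysin genes Mmp3 and Mmp10, the metalloelastase gene Mmp12 and the matrilysin gene Mmp7. The 427 kb of the cluster held 9 regions before treatment and 22, 15 and 11 at days 1, 7 and 28. Per megabase this was 21.1, 51.5, 35.1 and 25.8, beside 53.3, 62.6, 55.3 and 49.5 over the 19 autosomes and X. In the untreated list the stretch from Mmp13 to Mmp10, which spans Mmp12, Mmp1b, Mmp3 and Mmp1a, had no region; at day 1 it had regions at Mmp12, Mmp3 and Mmp10, and a further region lay 10744 bp outside Mmp13. That region was listed at 9.61 at day 1 and 8.6 at day 7, and another, 21406 bp from Mmp13, at 9.67 at day 7 and 4.26 at day 28; the Mmp13 promoter had no peak in any list.

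Mmp8, the neutrophil collagenase, held 1 region before treatment and 8, 6 and 3 at days 1, 7 and 28, and 7 of its day 1 regions were gained, 4 of them above the common floor. The Mmp3 promoter held a peak with a fold of 8.19 at day 1 and 5.37 at day 7 and none in the untreated and day 28 lists. The Mmp10 promoter peak of day 1 had a fold of 2.84, below the common floor. Mmp20, the enamel protease gene, had 1, 0, 1 and 1 regions, and Mmp7 had 3 untreated regions, none at day 1 and 1 each at days 7 and 28; the Mmp7 promoter held a peak of fold 3.46 in untreated epithelium and none later. The strongest region of the cluster lay near Mmp27 and was present in all 4 lists, with folds of 31.3, 48.7, 56.7 and 33.8.

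**Figure D4:**
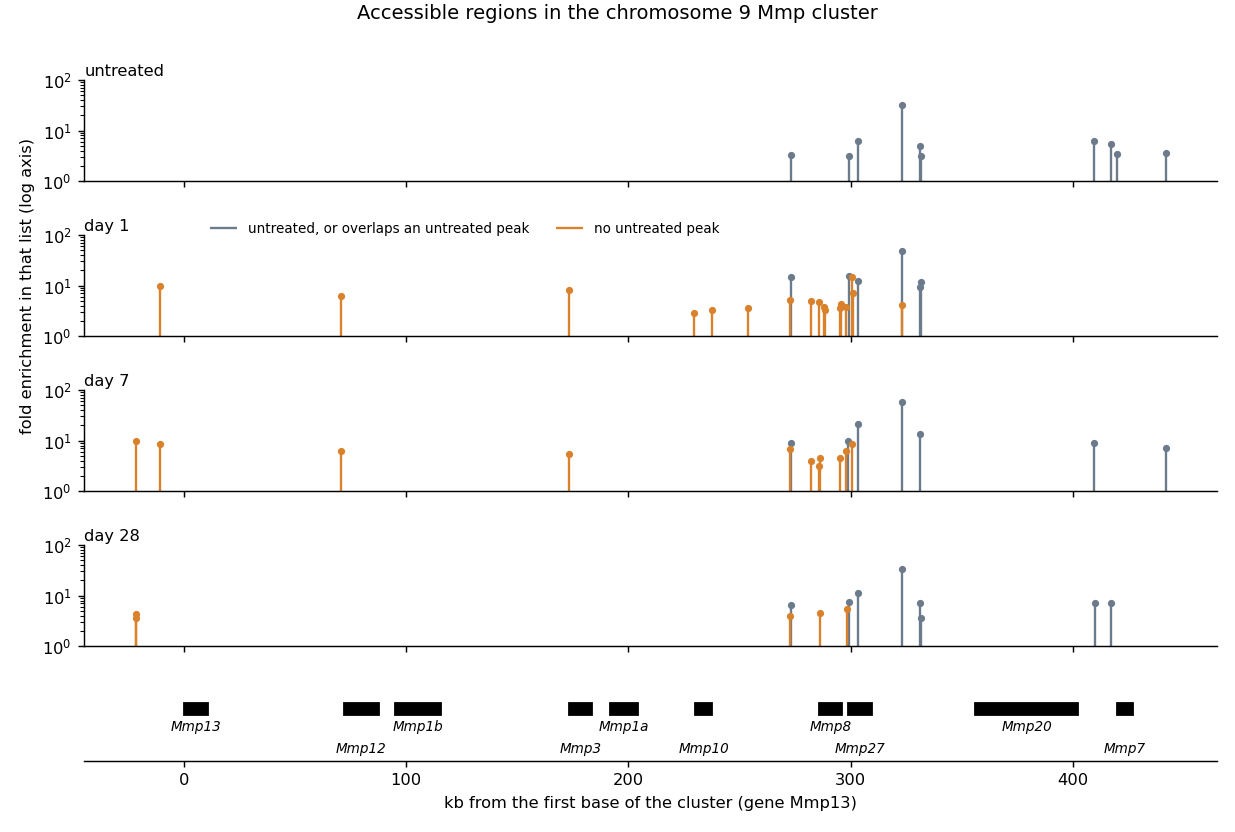
Fold enrichment at the summit of each region (vertical lines) along the chromosome 9 Mmp cluster in the untreated, day 1, day 7 and day 28 lists, by distance in kb from the outer end of Mmp13, with the 10 gene spans below; regions without an untreated peak are orange, and the vertical axis is logarithmic; regions linked to these genes outside the cluster are included. The interval from Mmp13 to Mmp10 is empty in the untreated list, and 22, 15 and 11 regions lie within the cluster at days 1, 7 and 28, beside 9 in untreated epithelium.

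The 4 inhibitor genes together held 40 regions before treatment and 56, 50 and 50 at days 1, 7 and 28. They had 25, 22 and 17 gained and 5, 10 and 12 lost at days 1, 7 and 28; on the common floor 16, 21 and 17 were gained and 6, 10 and 12 lost. The gained share was 44.6% at day 1, beside 52.4% of all regions, and 44.0% at day 7, beside 36.0%. The lost share was 12.5% at day 1, beside 37.4%, and 25.0% at day 7, beside 32.0%. On the common floor these genes had 37.2% gained at day 1, beside 42.1%, and 15.0% lost, beside 45.0%. At day 28 34.0% of their regions were gained beside 23.7% of all regions and 30.0% of their untreated regions lost beside 27.1%, from 2 genes almost alone. Timp2, the inhibitor that also takes part in the activation of pro-Mmp2, held 25, 31, 30 and 31 regions, with 12, 13 and 10 gained and 3, 6 and 7 lost. Timp3, which binds to the matrix and also inhibits ADAM17, held 13, 22, 18 and 16, with 11, 8 and 6 gained and 2, 3 and 5 lost.

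The gained region with the second highest fold of all members at day 1 lay inside Timp3, at chr10:86327700-86329035, and was listed at 49.6 at day 1, 17.2 at day 7 and 6.53 at day 28, with no peak in untreated epithelium. Timp1, the inducible inhibitor, held 1 region in untreated epithelium and 2 in each later list. Its promoter was covered in all 4 lists, with folds of 13.8, 50.9, 39.2 and 25.6, but the day 1 summit there lay nearest to Syn1, the gene that encloses Timp1, and is not in the count. Timp4 held 1, 1, 0 and 1 regions.

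When the 4 lists were merged, 969 of 223972 merged regions belonged to the members. Of these, 271, or 28.0%, were held by all 4 lists, beside 26.7% of all merged regions. Regions held by day 1 only numbered 259, or 26.7% (24.0 to 29.6), beside 23.0%, and those held by days 1 and 7 only 133, or 13.7% (11.6 to 16.1), beside 9.31%. These 2 patterns are not given on the common floor, which 265 of the 469 regions gained at day 1 passed. The background pileup was 5.35 at day 1 and 2.72 and 2.52 at days 7 and 28. Closing and non-detection in the later lists therefore cannot be told apart. Regions held by all 3 later lists and absent from the untreated list numbered 47, or 4.85% (3.59 to 6.4), beside 3.83%. Those held by the untreated list alone numbered 67, or 6.91%, beside 10.5%.

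Of the 469 regions gained at day 1, 202, or 43.1% (38.5 to 47.7), overlapped a day 7 peak, beside 37.3% of all regions gained at day 1. At day 28, 61 of them, or 13.0% (10.1 to 16.4), still overlapped a peak, beside 14.1%. The 8 lasting regions with the highest day 28 fold belonged to Adamts9, Mmp17, Timp2, Timp3, Adam12, Adamts2, Adamts17 and Mmp27. That of Adamts9 lay inside the gene at chr6:92896129-92896663, with folds of 9.14, 6.98 and 8.8 at days 1, 7 and 28. That of Mmp17, a gene of a glycosylphosphatidylinositol-anchored membrane-type enzyme, lay 182 bp outside the gene at chr5:129611181-129611499, with folds of 3.94, 6.45 and 7.95. That of Timp2 lay inside the gene at chr11:118312379-118312654, with folds of 3.62, 7.79 and 7.38. The day 1 values of Mmp17 and Timp2, and that of Mmp27 at 3.78, lay below the common floor of that list.

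At the start of the gene (at either end where the start was not known), a summit within 1 kb was found at 44 members before treatment and at 47, 48 and 45 members at days 1, 7 and 28. These were 55.0%, 58.8%, 60.0% and 56.2% of the 80 genes, beside 66.7%, 66.0%, 66.8% and 65.2% of all protein-coding genes. At day 1 such a region was gained at 9 of the 80 members, beside 743 of all 21631 genes (3.43%). It was lost at 6 of the 80, beside 888 of 21631 (4.11%). The start was known for 50 of the 80 members and for 17274 of the 21631 genes. Either end was therefore scored for a larger part of the members, and the 2 sides are not measured alike. The gains were at Adam1b, Adam2, Adam5, Adam8, Adam23, Adamts1, Mmp3, Mmp8 and Mmp10. The losses were at Adamts14, Adamts15, Adamts18, Mmp7, Mmp14 and Mmp23. At Adamts1, Adamts14, Adamts15, Mmp14 and Mmp23 a peak reached within 1 kb of the start or end in all 4 lists, and what differed was the position of the nearest summit. It lay 2171 bp from the Adamts1 start before treatment and 37 bp from it at day 1. At day 1 the nearest summit lay 1109 bp from the start of Adamts14, 1673 bp from an end of Adamts15, 1608 bp from the start of Mmp14 and 1493 bp from that of Mmp23, beside 619, 233, 101 and 12 bp before treatment. At day 7, 7 of the 80 members had gained such a region, beside 565 of all 21631 genes (2.61%). By then 3 members had lost it, beside 543 genes (2.51%). At day 28 Adam5 and Mmp8 had gained it, beside 286 genes (1.32%), and Mmp7 had lost it, beside 606 (2.8%). Adam8, a leukocyte and tumour-associated sheddase, had a start region with a fold of 5.99 at day 1 and 6.18 at day 7 and none in the other lists.

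The promoters fell into groups by sequence as well as by accessibility. Of the 50 promoters with a sequence, 22 lay under a peak in all 4 lists, 9 in some lists and 19 in none. Over all 17274 promoters these numbers were 10516, 1262 and 5496. Taking the highest of a gene's starts, the median number of CG dinucleotides in the 300 bases was 22.5, 4 and 1 in these groups, and 22, 7 and 2 for all 17274 promoters grouped in the same way. The 9 promoters with a peak in some lists were those of Adam8, Adam23, Adamts13, Adamts18, Mmp3, Mmp7, Mmp8, Mmp10 and Mmp27.

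The AP-1 motif TGANTCA was found in 26.0% of the members' promoters, beside 8.19% of all promoters, and the TATA motif TATAAA in 30.0%, beside 14.9%. The PEA3-type ETS motif AGGAAG stood in 42.0% beside 37.5%, and the RUNX motif TGTGGT in 24.0% beside 17.0%. The printed promoters of Mmp13, Mmp3, Mmp10 and Mmp7 each hold an AP-1 motif upstream of a TATA motif: its first base lies at -35, -46, -63 and -63 from the gene start, and that of the nearest TATA motif at -16, -7, -29 and -26. The printed Mmp8 promoter holds the TATA motif on the reverse strand and no AP-1 motif, and that of Mmp27 holds neither. These promoters had a peak at different times: Mmp3 at days 1 and 7, Mmp10 at day 1, Mmp7 in untreated epithelium and Mmp13 in no list. AP-1 motifs stood in 9 of the 19 promoters without a peak, or 47.4%, beside 11.2% of all promoters without a peak. They stood in 1 of the 22 with a peak in all lists, or 4.55%, beside 6.09%. The 13 members with an AP-1 motif include Mmp1a, Mmp1b, Mmp3, Mmp7, Mmp10, Mmp12, Mmp13 and Mmp20. These are neighbours in the chromosome 9 cluster, and the same genes and Mmp8 hold a TATA motif, so the members' promoters are not independent.

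**Figure D5:**
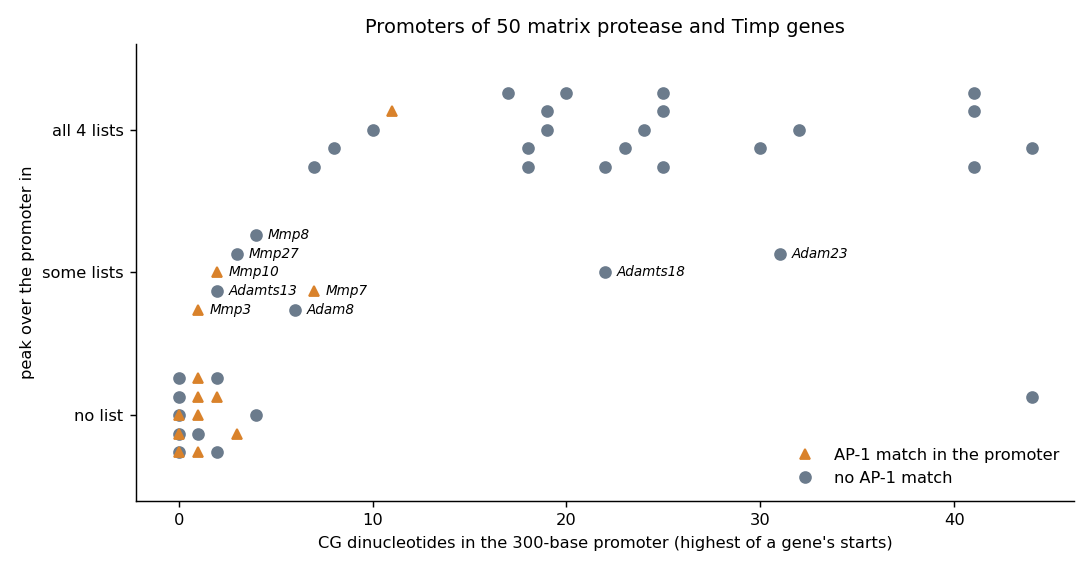
Number of CG dinucleotides in the 300-base promoter of the 50 genes with a RefSeq sequence, by whether a peak covered the promoter in all 4 lists, some lists or none; triangles are promoters with the AP-1 motif TGANTCA and circles those without, and the highest count is plotted for a gene with several starts. The median was 22.5 with a peak in all lists, 4 with a peak in some and 1 with none, and Adam23, with 31, is the highest of the promoters with a peak in some lists.

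The other genes of matrix proteolysis, a list of 34 that holds plasminogen activators, cathepsins and ADAMTS-like proteins, had 332 regions before treatment and 449, 422 and 320 at days 1, 7 and 28. The gained share was 55.9%, 43.4% and 23.4% at days 1, 7 and 28, and the lost share 20.5%, 19.3% and 23.5%. Beside these, 52.4%, 36.0% and 23.7% of all regions were gained and 37.4%, 32.0% and 27.1% lost. At day 1 44.7% were gained on the common floor, beside 42.1%, and 28.3% lost, beside 45.0%. More gained than lost regions were found at 22 of the 34 genes at day 1, at 21 at day 7 and at 10 at day 28. More lost than gained regions were found at 10, 9 and 18 of them. Of all protein-coding genes, 39.4%, 30.2% and 21.9% had more gained and 25.8%, 29.3% and 31.7% more lost regions at days 1, 7 and 28. Plau, the urokinase gene, held 10, 29, 21 and 12 regions. Adamtsl1 and Adamtsl3, which code for ADAMTS-like proteins without a protease domain, held 24, 67, 61 and 35 and 21, 53, 31 and 16. Furin, the gene of a convertase that activates membrane-type Mmp and Adam precursors, held 15, 11, 6 and 11. Adamdec1 had no region in any list, and Fap is also among the fibroblast markers.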

How the data were processed

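ATAC-seq peak lists of 4 libraries were used, 1 per group, and the groups came from the sample titles. The build was GRCm38 (mm10) and the tools included MACS2 2.1.0.20150731 and Bowtie2 2.2.6, per the submitters' processing notes; their options, the read filters and any adjustment of read ends for the transposase are not stated. The deposited lists are in the narrowPeak layout. The authors' fold enrichment divides the summit's pileup by its background (a ratio), their −log10 p and −log10 q values measure the same enrichment, the deposited score is derived from −log10 q, and the deposited offset gives the summit.

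Regions on the 19 autosomes and X were linked by summit to the nearest RefSeq (GRCm38.p6) protein-coding gene span within 50 kb. A summit inside several spans went to a member, else to the shortest span. Spans carry no exons, so exon and intron were not separated; strand came from the promoter table. Background pileups were recovered from fold and −log10 p, with 100% of pileups whole within 0.05. Intervals are exact (Clopper-Pearson, 95%). No p-values were computed, since each group has 1 library. Counting code was tested on simulated intervals.

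The members, gene lists, motifs and naming rule (per comparison the genes and regions with most gains, losses or highest folds, and all 4 Timp genes) were chosen with earlier results of these data known; the printed promoters and the extra regions given for Mmp2, Mmp15 and the chromosome 9 cluster were chosen after their values were seen. Alternatives changed the overlap, the q threshold, the enrichment floor, the link distance, the gene-end window and the members used. Python 3.11.15, numpy 2.4.6, pandas 2.3.3, scipy 1.17.1 and matplotlib 3.10.9 were used. The values of 1 gene of the list of other matrix proteolysis genes are not reported here.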

Additional observations from a re-analysis of the deposited data

How the results depend on the processing

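Of 76 alternative values, 67 stayed within 1.5 times the main count and 9 did not. On the common enrichment floor, 265 regions were gained at day 1 in place of 469, because regions between the lists' own floors and the common floor left the day 1 list. Where a shared region needed a reciprocal overlap of 50%, 395, 317 and 228 untreated regions were lost at days 1, 7 and 28 in place of 144, 137 and 131, and 228 in place of 134 were gained at day 28. With only regions of −log10 q of at least 5 counted as gained or lost, 73 were gained and 85 lost at day 28. With only summits inside a gene, 93 were lost at day 1, since 391 of the 543 untreated regions enter. Where the summit had to lie inside a peak of the other list, 89 of 542 day 28 regions were absent from the untreated list and present in all 3 later lists. The main count of 47 is of 969 merged regions, so the unit differs as well. Beyond this change of unit, the cause of the reciprocal and summit differences was not tested. Leaving out the 25 members within 50 kb of another member moved no count by more than 1.5 times. No paired analysis was possible because each group has 1 library. Depth limits the lists: a lowest pileup of 14 in the untreated and day 1 lists and of 10 and 9 at days 7 and 28 was needed for a peak, so for a region missing from a list absence and non-detection at that depth cannot be told apart.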
